A study of Danio rerio with 10 samples.

Results

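Titin, obscurin, the myomesins and telethonin are proteins that hold the sarcomere together, and 7 of their genes were followed here across zebrafish that express human TPM3. The genes were ttn.1, ttn.2, obscnb, myom1a, myom1b, myom2a and tcap, chosen by name from the 32265 genes of the deposited expression tables, and all 7 passed the FPKM minimum of 1 in every comparison. The fish were of the AB strain and carried human TPM3, a tropomyosin of slow muscle, under the MLC2 promoter together with a heart-driven EGFP marker (myl7:EGFP). The transgene was TPM3(WT), TPM3(E151A) or TPM3(E151G). The control was TPM3(WT) and carried the human transgene too, and no library of fish without a transgene was analysed here. Adult muscle was taken at 6 months, with 2 libraries per genotype that the authors combined into 1 value. From embryos there was 1 library for each of the same genotypes, and 1 more for TPM3(E151G) embryos treated with L-carnitine, which shuttles fatty acids for oxidation. The labels describe the embryo material as whole embryos of 2 days, the study writes of muscle from embryos, and which applies was not settled. The L-carnitine treatment that the study describes runs past the age in the labels, so the length of exposure behind this library is not settled either. The number of animals pooled for a library and the transgenic line used are not given in the sources used here. The tables have no row for the human transgene, so the genotypes could not be checked by it.

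As background, titin is a giant elastic protein that reaches from the Z-disc, where thin filaments are anchored, to the M-band, where thick filaments are cross-linked. Telethonin, encoded by tcap, binds the Z-disc end of titin. At the M-band myomesins bridge neighbouring myosin filaments and bind titin, and obscurin, another giant protein, binds titin and myomesin and connects the myofibril to the sarcoplasmic reticulum through small ankyrins. These roles are known mainly from mammals.

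The unit was FPKM, fragment numbers scaled by transcript length and library size, so levels of different genes can be set side by side within a condition. With 1 value per condition there were no replicate errors and no tests, and every difference below is a difference between those values. Ratios were log2 ratios of FPKM + 1, and genes 2-fold or more apart on that scale were counted by direction. Unless said otherwise, 3 adult values follow the order TPM3(WT), TPM3(E151A), TPM3(E151G), and 4 embryo values follow the same order with the L-carnitine library last. The summed FPKM, in units of 1000, was 712, 759 and 1404 in the adults and 575 to 740 in embryos, so every ratio was recomputed under 4 other scalings. Mitochondrially encoded genes held 25.9%, 36.2% and 47.6% of FPKM in the 3 adult genotypes, and 13.1% to 15.4% in embryos. All 8 skeletal muscle markers were above an FPKM of 1 in each of the 7 conditions, with sums of 28132, 34533 and 38398 in the adults and 37467 to 54778 in the embryos. The 6 heart markers summed to 1.43 to 2.33 in adults and 36.0 to 58.6 in embryos. The 5 oocyte markers summed to 2140, 520 and 361 in the adults, with all 5 above an FPKM of 1, and to at most 0.692 in embryos. The 5 testis markers summed to 54.7, 188 and 9.06 in the adults. Of these, dmrt1 was at 0.775, 27.1 and 1.40 and gsdf at 1.09, 30.3 and 0.686. The testis sum in TPM3(WT) came mainly from ddx4, sycp1 and piwil1, at 32.9, 10.5 and 9.41. Adult liver markers (5) summed to 2.80, 28.6 and 26.8, and the 5 blood markers to 748, 2822 and 1299. Adult sums were 1076, 569 and 283 for the 5 epidermis markers and 47.6, 76.7 and 135 for the 5 neuron markers. The lower epidermis sum in TPM3(E151A) was mainly epcam, at 69.0 against 583 in TPM3(WT). There krt4 was at 192 against 175, krt5 at 298 against 306 and cldni at 9.58 against 11.4. Cartilage and bone markers summed to 19.8, 9.14 and 42.8. The part of these other cell types in the adult values was not tested. In bulk RNA, fewer muscle cells and less RNA per muscle cell cannot be told apart.

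Titin was read from a tandem pair of genes. In these tables ttn.1 (ENSDARG00000000563) and ttn.2 (ENSDARG00000028213) have 1 shared locus on chromosome 9 of GRCz11, from 42931204 to 43272173, 341 kb long, and how reads were divided between them is uncertain. In adult muscle the FPKM of ttn.1 was 27.2, 33.6 and 49.2. In embryos it was 29.1, 18.5, 14.6 and 24.0. The highest adult value was thus in TPM3(E151G), the genotype with the lowest embryo value. ttn.2 had the same order, with 49.4, 61.9 and 94.0 in the adults and 35.3, 25.5, 20.8 and 30.2 in the embryos. Summed over both rows, titin was 76.7, 95.4 and 143 in the adults and 64.4, 44.0, 35.4 and 54.2 in the embryos.

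obscnb (ENSDARG00000022101), an obscurin gene on chromosome 24 from 36045771 to 36126973, had the lowest level of the 7 genes in each of the 7 conditions. Its adult FPKM was 8.60, 8.83 and 15.3. Its embryo FPKM was 12.1, 13.8, 5.23 and 11.7. Only the untreated TPM3(E151G) library stood apart, while the other 3 embryo libraries lay between 11.7 and 13.8.

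Myomesin genes followed, with myom1a the most abundant. myom1a (ENSDARG00000061249, chromosome 2 from 30932654 to 30976380) was the highest of the 7 genes in every embryo library, with 153, 183, 169 and 159. In adults it was 172, 215 and 263. Its paralog myom1b (ENSDARG00000104836, chromosome 7 from 71496917 to 71566624) was at 84.2, 83.9, 64.9 and 82.2 in the embryos and at 22.9, 15.9 and 24.3 in the adults, where TPM3(E151A) was lowest. myom2a (ENSDARG00000075433, chromosome 11 from 11217474 to 11277249), a gene for myomesin 2, was at 92.8, 99.9, 103 and 83.3 in the embryos. In adults it was 42.6, 62.0 and 132, and the value in TPM3(E151G) was 3.10 times that in TPM3(WT).

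tcap (ENSDARG00000007344), on chromosome 3 from 21110045 to 21111912, is the only short gene of the 7, with a locus of 1.87 kb against 43.7 to 341 kb for the others. Its FPKM was 146, 423 and 668 in adults, and it was the highest of the 7 genes in both adult mutants. In embryos it was 19.1, 15.1, 17.1 and 12.2. The embryo value with L-carnitine was the lowest of the 7 conditions.

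**Figure D1:**
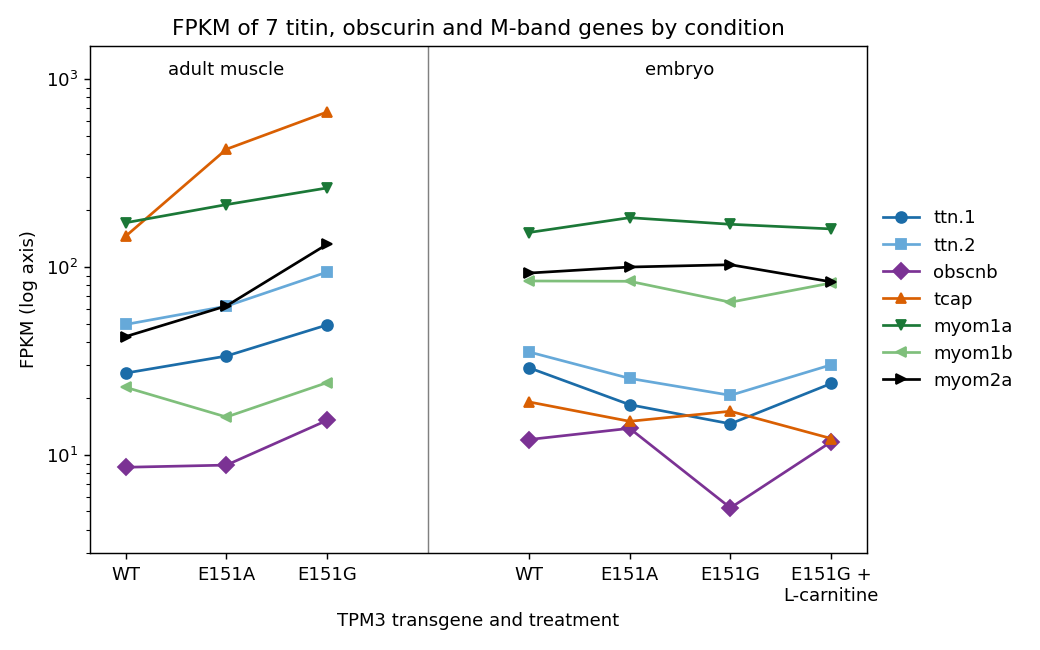
FPKM (log axis) of the 7 genes in 3 adult and 4 embryo conditions, 1 value per condition. tcap went from 146 to 668 across the adult genotypes, and in embryos obscnb and both titin genes were lowest in untreated TPM3(E151G).

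The order of levels within a condition differed by stage. In adult TPM3(WT) it ran myom1a, tcap, ttn.2, myom2a, ttn.1, myom1b and obscnb. In TPM3(WT) embryos it ran myom1a, myom2a, myom1b, ttn.2, ttn.1, tcap and obscnb. Neighbours in these orders were often close, as with myom2a and ttn.2 at 62.0 and 61.9 in adult TPM3(E151A), or myom2a and myom1b at 83.3 and 82.2 in the L-carnitine embryos, and without replicates the order of such pairs cannot be settled.

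In adult TPM3(E151A) against TPM3(WT), tcap was the 1 gene of 7 that was 2-fold or more higher, where 9.9% of 16865 genes were. Its log2 ratio was 1.53, and it was 1.03 to 1.88 under the other scalings. No member was 2-fold or more lower, where 19.2% of genes were. The remaining ratios lay between -0.50 for myom1b and 0.53 for myom2a. The median over the 7 genes was 0.32, beside -0.22 over all genes compared. ttn.1, ttn.2, obscnb and myom1a were above 0 on the deposited scale, with 0.29, 0.32, 0.03 and 0.32. Each was below 0 under scaling to short sarcomere genes, and obscnb also under equal FPKM sums. The median of all genes was -0.61 and -0.29 under these scalings, in that order.

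In adult TPM3(E151G) against TPM3(WT), tcap and myom2a were 2-fold or more higher, 2 of 7 where 17.4% of 16572 genes were, and no member was 2-fold or more lower, where 25.5% were. tcap had a log2 ratio of 2.19 (1.21 to 2.35 under the other scalings), and 2.52% of genes had a higher one. myom2a had 1.61, and was under 2-fold with 0.65 at equal FPKM sums and 0.90 under scaling to short sarcomere genes. Both titin genes and obscnb were just short of 2-fold, with 0.83 for ttn.1, 0.91 for ttn.2 and 0.76 for obscnb. At equal FPKM sums, with an all-gene median of -0.91, all 3 turned slightly negative (-0.12, -0.05 and -0.14). They did so under no other scaling run. Their highest values over the scalings were 0.98, 1.07 and 0.91, so ttn.2 could pass 2-fold. myom1a had 0.61, with -0.36 at equal FPKM sums and -0.11 under scaling to short sarcomere genes. myom1b had 0.08, which was -0.86 to 0.23 under the other scalings. So tcap and myom2a were above TPM3(WT) under each scaling run, and for the other 5 genes the sign rested on the scale. The median over the 7 genes was 0.83, beside -0.14 over all genes. The lower oocyte and epidermis markers and the higher mitochondrial share of TPM3(E151G) moved with these values, and their part was not tested.

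Between the adult mutants, myom2a was 2-fold or more higher in TPM3(E151G) than in TPM3(E151A), 1 of 7 where 10.1% of 16715 genes were, and 0 were lower, where 9.88% were. The log2 ratio of myom2a was 1.08 and lay between 0.20 and 0.91 under the other scalings, so it was 2-fold under none of these 4. tcap had 0.66, which was -0.23 at equal FPKM sums. The other 5 were 0.29 to 0.73 on the deposited scale, and each of these turned negative under at least 1 of the 4 scalings. The median of all genes was 0.09 on the deposited scale and -0.62 to -0.05 under the 4 scalings.

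**Figure D2:**
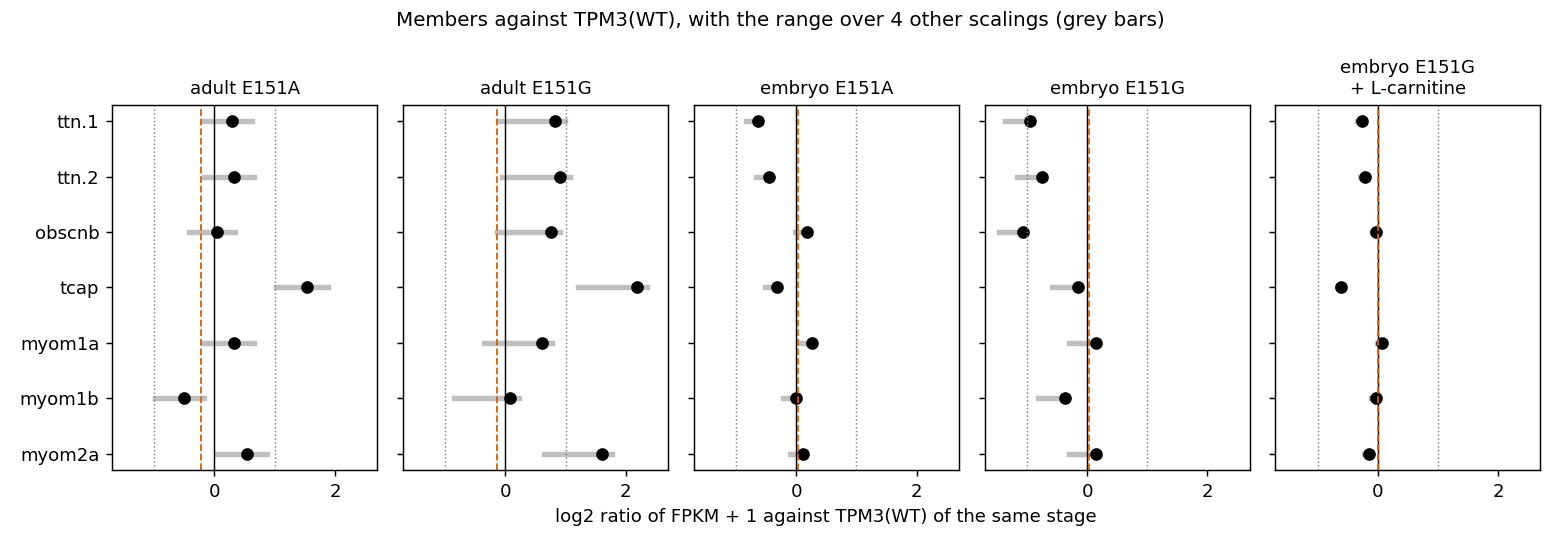
Log2 ratio of FPKM + 1 of each gene against TPM3(WT) of its stage (black points), with the range over 4 other scalings (grey bars), 2-fold limits (dotted) and the median of all genes compared (dashed). In adults the grey bars of tcap and myom2a stay above 0, and in TPM3(E151G) embryos those of ttn.1, ttn.2, obscnb, myom1b and tcap stay below 0.

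In embryos, TPM3(E151A) against TPM3(WT) had 0 of 7 members 2-fold or more higher and 0 lower, where 0.99% and 0.996% of 17577 genes were. The lowest ratios were those of ttn.1 and ttn.2, at -0.63 and -0.45, and 4.68% and 10.2% of genes had a lower one. Both stayed below 0 under the 4 scalings, with -0.83 to -0.66 for ttn.1. obscnb was at 0.18 here, and -0.01 at equal FPKM sums of nuclear genes. tcap was at -0.32, myom1a at 0.26 and myom1b at -0.01, and myom2a was at 0.11 with a negative sign under 3 of the 4 scalings.

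In TPM3(E151G) embryos against TPM3(WT), obscnb and both titin genes were lower while myom1a and myom2a were close to TPM3(WT). obscnb was the 1 gene of 7 that was 2-fold or more lower, where 1.79% of 17581 genes were, and 0 were 2-fold or more higher, where 0.637% were. Its log2 ratio was -1.07, and -1.46 to -1.13 under the other scalings, so obscnb was past 2-fold under each of them. ttn.1 was at -0.94, within a small margin of 2-fold, and was past it under each of the 4 scalings, down to -1.36. ttn.2 was at -0.74, and past 2-fold under 3 scalings, with -0.80 at median-of-ratios scaling as the exception. myom1b was at -0.37 and tcap at -0.16, and both stayed negative under the scalings run. myom1a and myom2a were at 0.14 and 0.15, and both were below 0 under every scaling run but median-of-ratios, down to -0.29. The median over the 7 genes was -0.37, beside 0.04 over all genes. The 4 scalings lowered all genes together. Their all-gene medians were -0.27 at equal FPKM sums, of all or of nuclear genes, -0.01 at median-of-ratios and -0.33 for short sarcomere genes. The share of all genes past 2-fold under these scalings is not given here, so passing the limit under them is not specific to the members. The 8 muscle markers summed to 54778 in this library against 39112 in TPM3(WT), so the lower titin and obscurin levels stood beside a higher marker sum. Among other marker sets with an FPKM of 1 or more in any gene, the sums of blood, epidermis, and cartilage and bone were highest here too. Blood was at 1761 against 909 in TPM3(WT) and 1088 to 1177 elsewhere, and epidermis at 7279 against 5195 and 5415 to 6341. Cartilage and bone was at 309 against 284 in TPM3(WT) and 223 to 241 elsewhere. That sum was mostly col2a1a, at 292 against 265 in TPM3(WT). In the same libraries matn1 was at 13.7 against 12.9, and acana was lower, at 3.03 against 4.42. The part of these marker sets in the members' values was not tested.

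TPM3(E151G) embryos were also set against TPM3(E151A). obscnb was 2-fold or more lower, 1 of 7 where 1.34% of 17359 genes were, with a log2 ratio of -1.25, and 0 members were 2-fold or more higher, where 1.27% were. The titin genes were less far apart between the mutants, with -0.32 for ttn.1 and -0.29 for ttn.2, and the other 4 were between -0.37 and 0.17, of which myom2a (0.04) and tcap (0.17) were negative under scaling to short sarcomere genes, at -0.26 and -0.12. This comparison and the one with TPM3(WT) share the TPM3(E151G) library.

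With L-carnitine, obscnb was 2-fold or more higher than in untreated TPM3(E151G) embryos, 1 of 7 where 2.55% of 17585 genes were, and 0 were 2-fold or more lower, where 0.199% were. Its log2 ratio was 1.03, and 1.09 to 1.43 under the other scalings. ttn.1 was at 0.68 and ttn.2 at 0.52, and both were above 0 under the scalings run, with ttn.1 past 2-fold (1.11) only under scaling to short sarcomere genes. myom1b was at 0.34. On the other side, tcap was at -0.45, and 6.66% of genes had a lower ratio. myom2a was at -0.30 and myom1a at -0.08, and under scaling to short sarcomere genes both were positive, at 0.15 and 0.37. At equal FPKM sums of nuclear genes they were at 0.01 and 0.23. The other scalings raised all genes together here. The all-gene median was -0.04 on the deposited scale, and 0.20 and 0.22 at equal FPKM sums of all and of nuclear genes. It was 0.02 at median-of-ratios scaling and 0.34 under scaling to short sarcomere genes. The higher ratios of members under these scalings are thus not specific to the members.

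Against TPM3(WT), the L-carnitine library had 0 of 7 members 2-fold or more higher, where 1.97% of 17731 genes were, and 0 lower, where 0.384% were. obscnb was at -0.04, ttn.1 at -0.27 and ttn.2 at -0.22. myom1a, myom1b and myom2a were between -0.15 and 0.06. The member farthest from TPM3(WT) was tcap, at -0.61 and between -0.68 and -0.60 under the other scalings, and 1.36% of genes had a lower ratio. The 3 comparisons that involve the L-carnitine, untreated TPM3(E151G) and TPM3(WT) libraries share libraries pairwise, so a low value in the single untreated library lowers 1 ratio and raises the other. The 5 liver markers summed to 1584 with L-carnitine and to 272 to 389 in the other 3 embryo libraries, and the part of this difference in the members' values was not tested.

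Each FPKM was also divided by the summed FPKM of the 8 skeletal muscle markers of its condition, a scale chosen after the values had been seen. Most of these markers are also among the short sarcomere genes given below, whose median log2 ratio was 0.44 in TPM3(E151G) embryos against TPM3(WT). Muscle content and that shift of short sarcomere genes cannot be told apart in this divisor. Per 1000 FPKM of markers, titin (both rows) was 1.65, 1.06, 0.646 and 1.45 in embryos. obscnb was 0.309, 0.334, 0.0954 and 0.314. On this scale myom1a, myom1b and myom2a were also lowest in TPM3(E151G), at 3.08, 1.19 and 1.88 against 3.90, 2.15 and 2.37 in TPM3(WT). tcap was 0.490 in TPM3(WT), and 0.364, 0.312 and 0.326 in the other 3 embryo libraries. In adults tcap remained the gene with the widest range, at 5.18, 12.3 and 17.4. Adult myom2a was 1.51, 1.80 and 3.44, adult titin 2.73, 2.76 and 3.73, and adult myom1a 6.11, 6.22 and 6.86.

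**Figure D3:**
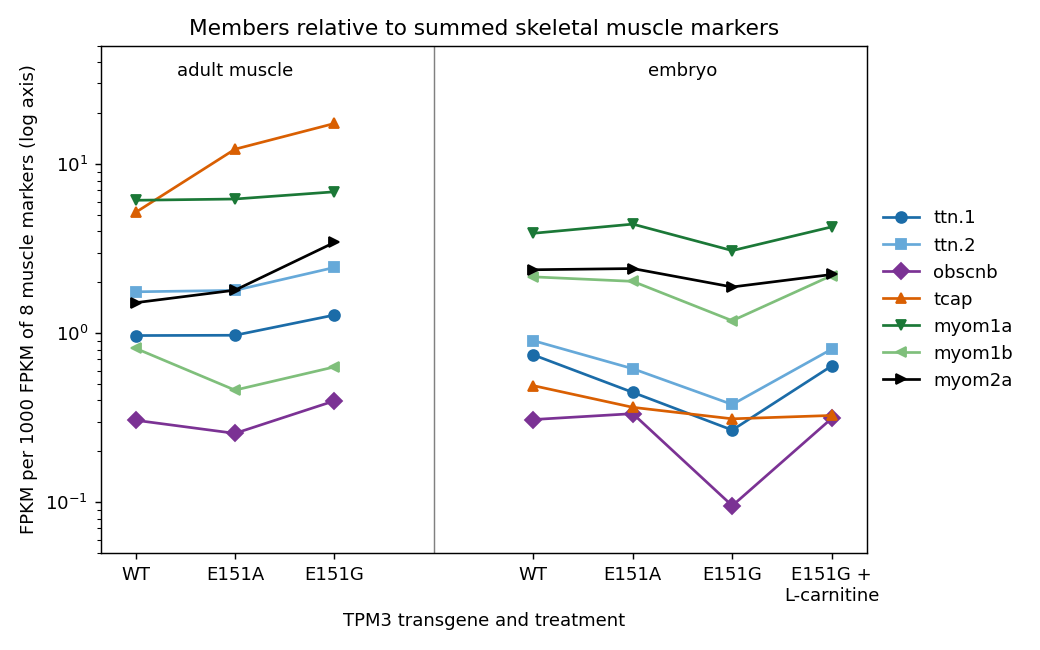
FPKM of each gene per 1000 summed FPKM of 8 skeletal muscle markers (log axis) in 3 adult and 4 embryo conditions, 1 value each. In embryos obscnb was 0.0954 in untreated TPM3(E151G) and 0.309 to 0.334 elsewhere, and in adults tcap went from 5.18 to 17.4.

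Ratios of 2 genes within a library do not depend on its scale. A shift that goes with gene length would not cancel, and tcap and ttn.1 have loci of 1.87 and 341 kb. Its part was not tested. The ratio of ttn.1 to ttn.2 rests on the uncertain division of reads between them. ttn.1 stood at 0.551, 0.543 and 0.523 of ttn.2 in the 3 adult genotypes. In embryos it was 0.824, 0.725, 0.705 and 0.796 of ttn.2, so the pair was nearer to equal in embryos than in adults in each case. myom1a was 7.51, 13.5 and 10.9 times myom1b in adults and 1.81, 2.18, 2.60 and 1.94 times in embryos. myom1a was 4.04 and 3.46 times myom2a in adult TPM3(WT) and TPM3(E151A) but 1.99 times in TPM3(E151G), and 1.64 to 1.91 times in embryos. tcap was 5.35, 12.6 and 13.6 times ttn.1 in the adults. In embryos ttn.1 was above tcap in TPM3(WT), TPM3(E151A) and the L-carnitine library, by 1.52, 1.23 and 1.96 times, and below it in TPM3(E151G), at 0.858.

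Adult and embryo values come from separate tables, and whether they were normalized together is not stated, so ratios across stages rest on the scale of both tables. Within TPM3(WT), tcap was the 1 gene of 7 that was 2-fold or more higher in adult muscle, with a log2 ratio of 2.86, where 22.8% of 19385 genes were. myom1b and myom2a were 2-fold or more lower, 2 of 7 where 33.2% were, with -1.83 and -1.10. The titin genes, obscnb and myom1a were between -0.45 and 0.47. These signs held under the 4 scalings except that of myom1a, at 0.17 on the deposited scale and -0.13 at equal FPKM sums. With a trend on locus length taken out, myom2a was no longer 2-fold apart, at -0.55, ttn.2 was, at 1.14, and ttn.1 and obscnb were positive, at 0.58 and 0.19. If the embryo libraries hold whole embryos, stage and tissue cannot be told apart.

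The closest relatives of these genes, given after their values had been seen, were myom2b, myom3, obscna, obsl1a, obsl1b, spega and spegb. The embryo FPKM of myom2b, the other myomesin 2 gene, was 50.7, 51.3, 35.0 and 42.1. That of myom3, for myomesin 3, was 5.36, 5.59, 7.75 and 5.54, so these myomesins were on opposite sides of TPM3(WT) in untreated TPM3(E151G). spega and spegb, whose products carry kinase domains like those of obscurin, were at 9.42, 7.99, 6.90 and 11.2 and at 8.88, 7.14, 6.61 and 9.25. For obsl1a and obsl1b, which encode obscurin-like proteins, the values were 4.04, 4.07, 3.71 and 3.23 and 4.62, 4.69, 3.53 and 4.65. Of these 6, obsl1a had its lowest value with L-carnitine, and myom3 its highest in untreated TPM3(E151G). The second obscurin gene, obscna, was under an FPKM of 1 in all 4 embryo libraries and was not compared there. In adults obscna was at 1.16, 5.81 and 8.34, and myom3 at 2.64, 3.71 and 17.3. obsl1b was at 11.3, 15.0 and 41.4, spega at 0.236, 0.956 and 1.66, and spegb at 5.65, 7.20 and 11.9. myom2b, at 11.5, 11.8 and 10.1, and obsl1a, at 2.61, 2.50 and 2.54, had narrower ranges.

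A list of 36 titin and M-band partners, which holds those relatives, titin ligases, chaperones and creatine kinases, was widest apart in adults. In TPM3(E151G) against TPM3(WT), 18 of the 33 compared were 2-fold or more higher and 0 lower, where 17.4% and 25.5% of all genes were, with a median of 1.11 that was 0.17 at equal FPKM sums. trim63a and trim55b, ubiquitin ligases of the MuRF family that bind titin near the M-band in mammals, were at 682 against 97.6 and 84.2 against 13.9. myom3 and obscna had the next largest log2 ratios, 2.33 and 2.11. In TPM3(E151A) 5 of 32 were 2-fold or more higher, where 9.9% of all genes were, among them ankrd1a, a stress-induced ankyrin-repeat protein that binds titin (8.50 against 1.04), sqstm1, an autophagy receptor (43.0 against 18.5), and obscna. In embryos the list had few 2-fold differences. Against TPM3(WT), TPM3(E151G) had 20 of 35 above 0 and 15 below, where 54.0% of all genes were above 0. The median was 0.30, and -0.13 under scaling to short sarcomere genes. The 1 gene past 2-fold (0.637% of all genes were higher) was sqstm1, at 14.1 against 3.69. It was also past 2-fold in the L-carnitine library, at 10.5.

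Z-disc genes, near the other end of titin, had 15 of 31 at 2-fold or more higher and 1 lower in adult TPM3(E151G), beside the same 17.4% and 25.5%, with a median of 0.97 (0.13 at equal FPKM sums). flnca, a filamin C gene, was at 78.7 against 8.50, myoz2b, a calsarcin, at 59.4 against 12.7, and xirp1, an actin-binding Xin protein, at 23.5 against 4.81. cryabb, a small heat shock protein gene, was at 7.51 against 0.114, and desmb, a desmin gene, was the 1 lower, at 1.72 against 7.55. In adult TPM3(E151A) 6 of 32 were 2-fold or more higher, beside 9.9% of all genes, with hspb8, a small heat shock protein, at 25.2 against 5.66. In TPM3(E151G) embryos 0 of 27 were 2-fold or more higher and 1 was lower, where 0.637% and 1.79% of all genes were. The 1 lower was mypn, whose product myopalladin binds nebulin and actinin at the Z-disc in mammals. Its log2 ratio was -1.03, from 3.69 in TPM3(WT).

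Thick filament genes, the partners of the M-band, had 13 of 21 at 2-fold or more higher and 1 lower in adult TPM3(E151G), again beside 17.4% and 25.5%, with a median of 1.36 (0.45 at equal FPKM sums). mybpc1, the slow form of myosin-binding protein C, was at 326 against 19.3, mybpc3 at 282 against 42.4 and mybpc2a at 63.8 against 6.56. Among TPM3(E151G) embryo values 17 of 19 were above 0, where 54.0% of all genes were. The median was 0.40, and 0 were 2-fold apart, where 0.637% of all genes were higher and 1.79% lower. That median was -0.04 under scaling to short sarcomere genes. With L-carnitine against TPM3(E151G) 0 of 19 were above 0, where 45.8% of all genes were. The median was -0.41, which was 0.01 under that scaling. Some of these genes are also on the short sarcomere list, so both medians under that scaling are drawn toward 0 partly by construction.

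The members other than tcap have long transcripts, and lists of other long and short transcripts, written from general knowledge of their proteins, were set beside them. The list names are approximate. On the list outside muscle, macf1a and syne1b were at 54.8 and 10.4 in adult TPM3(E151G) muscle. On the list of very long muscle mRNAs, mybpc2b is also 1 of the 8 skeletal muscle markers. Of very long mRNAs outside muscle (100 names, 85 found), 66 of 71 had a ratio under 0 in TPM3(E151G) embryos. Of all genes 54.0% were above 0 there. The median of the list was -0.41 (-0.74 to -0.45 under the other scalings). With L-carnitine against TPM3(E151G), 64 of 71 were above 0, where 45.8% of all genes were. The median was 0.37 (0.42 to 0.72 under the other scalings). Against TPM3(WT) the median with L-carnitine was -0.03. obscnb, ttn.1 and ttn.2 were all lower than the median of this list in TPM3(E151G). Within it lyst, a lysosomal trafficking regulator, was the 1 gene 2-fold or more lower (1.79% of all genes were), at 4.32 against 10.2. stab2, a scavenger receptor, was the 1 gene 2-fold or more higher (0.637% of all genes were), at 8.37 against 3.26.

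Very long muscle mRNAs depended more on the scale. The ratio to TPM3(WT) was under 0 for 11 of 19 in TPM3(E151G) embryos, where 54.0% of all genes were above 0. The median was -0.18, and 0 of the 19 were 2-fold apart, where 0.637% of all genes were higher and 1.79% lower. Under the other scalings 14 to 18 of 19 were under 0, with medians of -0.58 to -0.24. Chosen after their values were seen, neb, for the giant thin filament protein nebulin, was at 337 against 250, while lama2, for a laminin chain, was at 1.65 against 4.16 and ryr1b, a calcium release channel, at 14.9 against 21.4. Short sarcomere genes, such as those for actins, troponins and myosin light chains, went the other way. There 32 of 35 were above TPM3(WT), where 54.0% of all genes were. The median was 0.44, and 0.09 to 0.38 under the scalings that do not use this list. With L-carnitine against TPM3(E151G) 34 of 35 were below 0, where 45.8% of all genes were above 0. The median was -0.45, and -0.39 to -0.15 under those scalings. Scaling to short sarcomere genes sets the median of this list near 0 by construction. Against TPM3(WT) the L-carnitine median was 0.00.

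**Figure D4:**
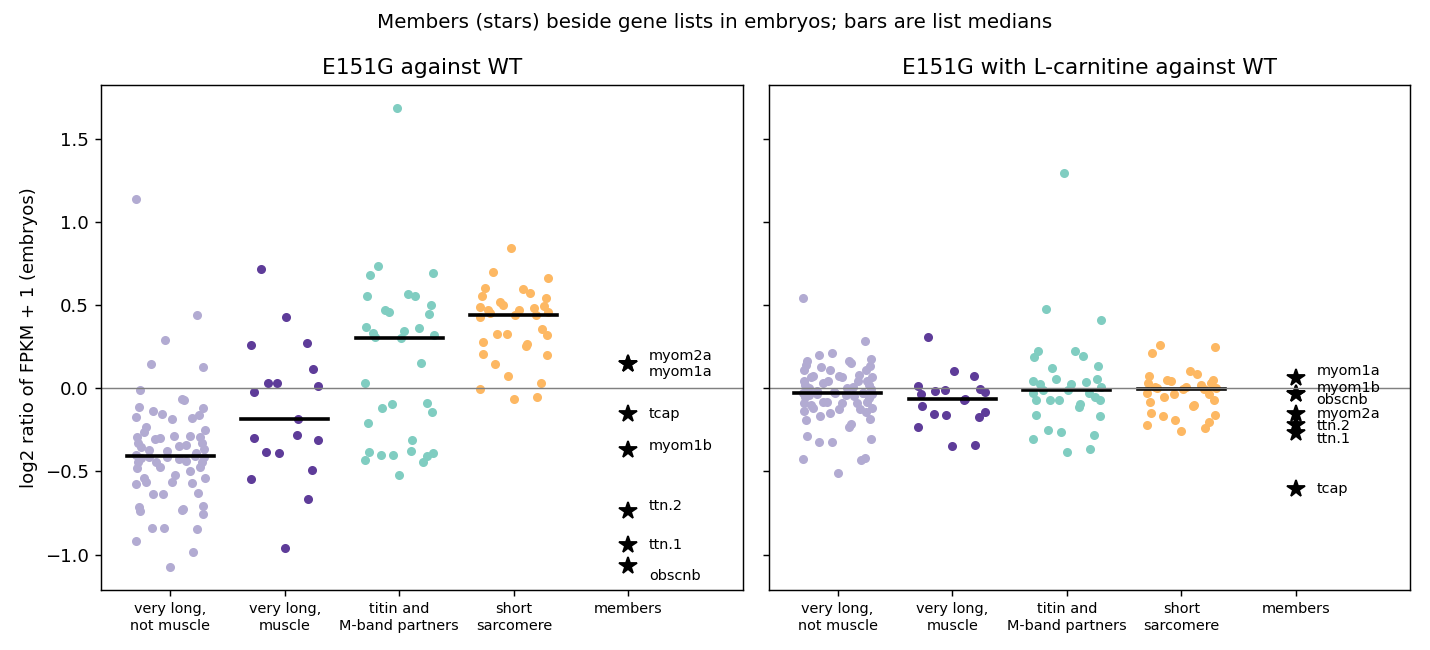
Log2 ratio of FPKM + 1 of single genes (points) in 4 gene lists and of the 7 members (stars) in embryos against TPM3(WT), with the median of each list as a bar. In TPM3(E151G) the medians run from -0.41 for very long mRNAs outside muscle to 0.44 for short sarcomere genes, and with L-carnitine they lie close to 0.

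Transcript length is not in the tables, so the length of the locus, introns included, was used for all genes. In TPM3(E151G) embryos against TPM3(WT) the median log2 ratio was 0.24 over 2040 genes with a locus up to 5 kb, 0.13 over 5886 of 5 to 20 kb and -0.13 over 2409 of 50 to 100 kb, the bin of obscnb, myom1b and myom2a. It was -0.06 over 1042 genes above 200 kb, the bin of titin. With L-carnitine against TPM3(E151G) the medians in the same bins were -0.21, -0.11, 0.10 and 0.07. After a smooth trend of the ratio on locus length was taken out, obscnb was at -0.95 in TPM3(E151G) against TPM3(WT) and no longer past 2-fold, ttn.1 at -0.89 and ttn.2 at -0.68. With L-carnitine against TPM3(E151G) they were at 0.93, 0.60 and 0.44. Locus length includes introns, so the share of transcript length in these ratios cannot be read from this trend. The very long mRNAs outside muscle moved with obscnb and the titin genes as given above, and the part of RNA length or quality was not tested.

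By likeness of pattern, the nearest genes were sought among the 5188 genes whose FPKM reached 5 in all 7 conditions, as the root mean square difference over 5 log2 ratios against TPM3(WT). These ratios share the TPM3(WT) value of their stage. For ttn.1 the nearest were micu3b, pleca and pnpla6, at 0.07, 0.18 and 0.20, and ttn.2 was at 0.13 from it. For ttn.2 they were pnpla6, leng8 and ppp2ca, at 0.10, 0.11 and 0.12. pleca encodes plectin, another giant cytoskeletal protein. For obscnb they were rbm24b, an RNA-binding protein gene, cacna2d1a, a calcium channel subunit gene, and kdm6ba, a histone demethylase gene, at 0.21, 0.25 and 0.27, and the nearest member was ttn.2 at 0.36. myom1a had cldn5b, rhoaa and prkcbp1l at 0.05, 0.07 and 0.07, and myom1b had znf292b and tjp1a at 0.08 and 0.10. myom2a had fbp1a, itga5 and si:dkey-147f3.8 at 0.05, 0.08 and 0.08, and its nearest member was myom1a at 0.47. tcap had gadd45ba, trappc2l and si:ch211-195b13.1 at 0.23, 0.24 and 0.24, and its nearest member, myom2a, was at 0.60. For every member but ttn.1 the genes named lay nearer than any other member did. With 5188 genes searched against so few members, that order says little about how alike the members are.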

How the data were processed

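RNA was sequenced from adult muscle and embryos of transgenic zebrafish in 10 libraries. The submitters' processing notes name bcl2fastq 2.20, Trimmomatic 0.36, HISAT2, featureCounts 1.6.3 and DESeq2 1.22.2, and the files use GRCz11 with Ensembl release 99. The deposited tables (7, with 32265 genes each) hold 1 FPKM value per condition, which the authors made by combining the 2 libraries of each adult genotype, with 1e-05 in place of 0. The program behind the FPKM values was not named in any source used here. The files hold no counts, so depth and counting error are unknown. The authors' ratios, log2 ratios, p-values and q-values, and their sheets of called genes, were not used.

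The log2 ratio of FPKM + 1 was computed with Python 3.11.15, numpy 2.4.6 and pandas 2.3.3 for 9 comparisons, for genes whose FPKM reached 1 in at least 1 of the conditions compared, and the steps were tested on simulated data. No test could be made with 1 value per condition. Alternatives were 4 scalings, a pseudocount of 0.1, FPKM minimums of none or 5, limits of 1.5-fold or 3-fold, and a lowess trend on locus length (statsmodels 0.14.6, fraction 0.3).

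Named were the 7 members, up to 4 genes per list with the largest ratios past 2-fold, and the 3 genes nearest each member in pattern. For myom1b, 1 of these 3 is not reported here. Genes named outside this rule are said to be so in the text. The members and lists were chosen with earlier results of these data known.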

Additional observations from a re-analysis of the deposited data

How the results depend on the processing

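Of 90 counts of members past 2-fold recomputed under alternatives, 65 were unchanged or within 1.5 times. In adult TPM3(E151G) against TPM3(WT) the count of 2 became 1 at equal FPKM sums and under scaling to short sarcomere genes. Between the adult mutants the count of 1 became 0 under all 4 scalings and with the locus length trend removed. In TPM3(E151G) embryos against TPM3(WT) the count of 1 became 3 at equal FPKM sums, of all or of nuclear genes, and under scaling to short sarcomere genes, 2 at median-of-ratios scaling and 0 with the length trend removed. The 4 scalings also moved the median of all genes there, from 0.04 to between -0.33 and -0.01. With L-carnitine against TPM3(E151G) the count of 1 became 2 under scaling to short sarcomere genes and 0 with the trend removed. Scaling to short sarcomere genes moved the median of all genes there from -0.04 to 0.34. In adult TPM3(E151G) against TPM3(WT) the scalings moved it from -0.14 to between -0.91 and -0.01. Between the adult mutants it went from 0.09 to between -0.62 and -0.05. The share of all genes past 2-fold under the scalings or with the trend removed is not given here, so those counts have no background beside them. A limit of 1.5-fold in either direction gave 6 in adult TPM3(E151G), where 66.6% of all genes were past it, and 4 between the adult mutants (43.0%). In embryos it gave 1 in TPM3(E151A) (10.6%), 3 in TPM3(E151G) (14.1%), 2 with L-carnitine against TPM3(E151G) (11.5%) and 1 with L-carnitine against TPM3(WT) (5.1%). A limit of 3-fold gave 0 in adult TPM3(E151A), where 9.82% of all genes were past it, and between the adult mutants (6.58%). It also gave 0 in TPM3(E151G) embryos against TPM3(WT) (0.336%) or TPM3(E151A) (0.444%), and with L-carnitine against TPM3(E151G) (0.734%). In adult TPM3(E151G) against TPM3(WT), tcap and myom2a stayed past it, where 19.4% of all genes were. The cause was not tested. The pseudocount of 0.1 moved no count and none of 28 ratios between paired genes, and of 387 recomputed log2 ratios of members, 0 past 2-fold changed sign and 20 crossed that limit. Summing both titin rows, an alternative added after the data were seen, gave -0.85 for TPM3(E151G) embryos against TPM3(WT). Depth limits could not be set without counts. A trend on protein length was not run, since protein lengths were not used here. No paired analysis was possible because the columns carry no replicate number, and for the same reason no library could be left out.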
